A study of Mus musculus with 17 samples.

Results

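The genes described here are 9 B cell receptor and identity genes, chosen by symbol: Cd79a, Cd79b, Ms4a1, Pax5, Ighm, Ighd, Igkc, Bank1 and Ebf1. The RNA-seq table lists 6 of them among 20328 genes, the scRNA-seq table lists 9 of 9 among 26646 gene names, and neither the H3K27ac table nor the ATAC-seq table assigns a region to any of them. Brain tissue of female ICR mice was compared in healthy controls (sham), a 6-OHDA-induced PD model and an NDST3-treated PD model, whose libraries are called sham, 6-OHDA and NDST3 here. The lesion was made on one side in mice aged 8 weeks with 10 µg/µl 6-OHDA, a neurotoxin that kills dopamine neurons, injected into the substantia nigra. The NDST3-treated PD model received the same lesion and, 5 days later, 2 µl of an AAV9 vector that carries human NDST3 under the CMV promoter, which is active in many cell types. RNA-seq holds 2 sham libraries, 1 library of the 6-OHDA-induced PD model and 2 of the NDST3-treated PD model. The scRNA-seq means cover 1 library of the 6-OHDA-induced PD model and 1 of the NDST3-treated PD model, and the sham library was not analysed here. The labels do not give the age of the sham mice, do not name a brain region, and do not say whether libraries came from separate animals, so p-values measure only the spread between these libraries.

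A B cell recognises antigen through a membrane immunoglobulin of paired heavy and light chains, held in a complex with the signalling chains CD79A and CD79B. Ighm and Ighd encode the heavy chains of IgM and IgD, which naive mature B cells carry together, and Igkc encodes the constant part of the kappa light chain. EBF1 and PAX5 are transcription factors that set and keep B cell identity and switch on genes such as Cd79a. The healthy brain holds few B cells, mostly at its borders and in blood vessels, and both factors have known roles outside B cells, PAX5 in the developing midbrain and EBF1 in mural cells and neurons.

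The promoters of the receptor gene Cd79a and of both factors are shown because Pax5 and Ebf1 differed in the same direction between libraries while Cd79a did not follow them. The RefSeq promoter table of GRCm38.p6 holds 4 of the 9 genes. Each line gives the 250 bases before an annotated start. Capitals mark CAGGTG, an E-box that E2A proteins bind, and GAGGAA, a form of the ETS factor site, on either strand. Other forms of these sites were not searched.
Cd79a, chr7:24897247-24897496, plus strand: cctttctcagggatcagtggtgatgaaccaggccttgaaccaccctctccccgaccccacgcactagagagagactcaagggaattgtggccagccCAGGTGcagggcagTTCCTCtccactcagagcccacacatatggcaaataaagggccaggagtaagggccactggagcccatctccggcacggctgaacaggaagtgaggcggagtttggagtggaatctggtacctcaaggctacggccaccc
Pax5, chr4:44710695-44710944, minus strand: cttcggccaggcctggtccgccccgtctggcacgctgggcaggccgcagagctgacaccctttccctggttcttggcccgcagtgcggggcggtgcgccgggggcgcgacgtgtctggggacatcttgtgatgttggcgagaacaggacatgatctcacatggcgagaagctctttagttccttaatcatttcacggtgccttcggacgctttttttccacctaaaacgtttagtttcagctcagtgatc
Ebf1, chr11:44617850-44618099, plus strand, upstream start: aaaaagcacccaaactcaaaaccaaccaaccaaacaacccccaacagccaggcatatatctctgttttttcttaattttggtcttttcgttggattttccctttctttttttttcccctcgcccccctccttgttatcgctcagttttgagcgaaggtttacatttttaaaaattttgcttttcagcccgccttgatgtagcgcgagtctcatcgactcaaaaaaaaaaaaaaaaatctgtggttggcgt
Ebf1, chr11:44619978-44620227, plus strand, downstream start: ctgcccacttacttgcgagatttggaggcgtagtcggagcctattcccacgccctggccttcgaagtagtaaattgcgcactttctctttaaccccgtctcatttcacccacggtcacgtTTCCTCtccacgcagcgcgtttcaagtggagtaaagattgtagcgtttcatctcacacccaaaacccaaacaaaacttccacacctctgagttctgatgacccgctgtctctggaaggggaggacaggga
The Cd79a window held CAGGTG 154 bases and GAGGAA 140 bases before the start, the downstream Ebf1 window held GAGGAA 130 bases before its start, and the Pax5 window and the upstream Ebf1 window held neither. Over all 32851 promoter windows of this length, 17.2% held CAGGTG and 23.3% held GAGGAA. The exact letters of the EBF motif core CCCNNGGG, found in 11.8% of windows, were in none of the printed windows. Nor were those of the octamer ATGCAAAT of immunoglobulin promoters, found in 1.6%. Sites that differ from these letters were not searched. The Bank1 window, not printed, held CAGGTG and CCCNNGGG once each, 145 and 21 bases before its start.

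In the single-cell data the 9 genes met in 1 cluster. All 9 had their highest mean in cluster 9, in the mean of both libraries and in either library alone. The table gives 1 mean per gene, cluster and library on a natural log scale, with no cell numbers, so the spread between cells and between animals is unknown and no test was made. In the mean of both libraries, all 12 of the B cell markers were highest in cluster 9. Cd22 led there by only 0.07, and in the 6-OHDA library it stood at 0.214 in cluster 9 and at 0.244 in cluster 3. Among the 10 genes that led cluster 9 by the largest margin over any other cluster were Igkc, Cd79a, Ighm, Bank1, Ms4a1 and Cd79b, and cluster 9 is called B cell-like here.

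Cluster 9 held RNA of every part of the receptor complex. The mean of Igkc was 4.31 in 6-OHDA and 3.94 in NDST3, the highest of the 9 genes in both. Ighm stood at 2.92 and 2.45, and Ighd at 0.898 and 1.67. Ighm was thus above Ighd in both libraries, with a smaller gap in NDST3. The signalling chains stood at 3.23 and 3.03 for Cd79a and at 2.05 and 1.44 for Cd79b. Ms4a1, which encodes the CD20 surface protein, had means of 1.91 and 1.63, and Bank1, an adaptor of the receptor, had means of 2.33 and 2.68. Pax5 stood at 1.55 and 1.49, and Ebf1 at 3.09 and 3.38. These means compare a gene between clusters, and their order between genes also depends on how each transcript is captured.

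**Figure D1:**
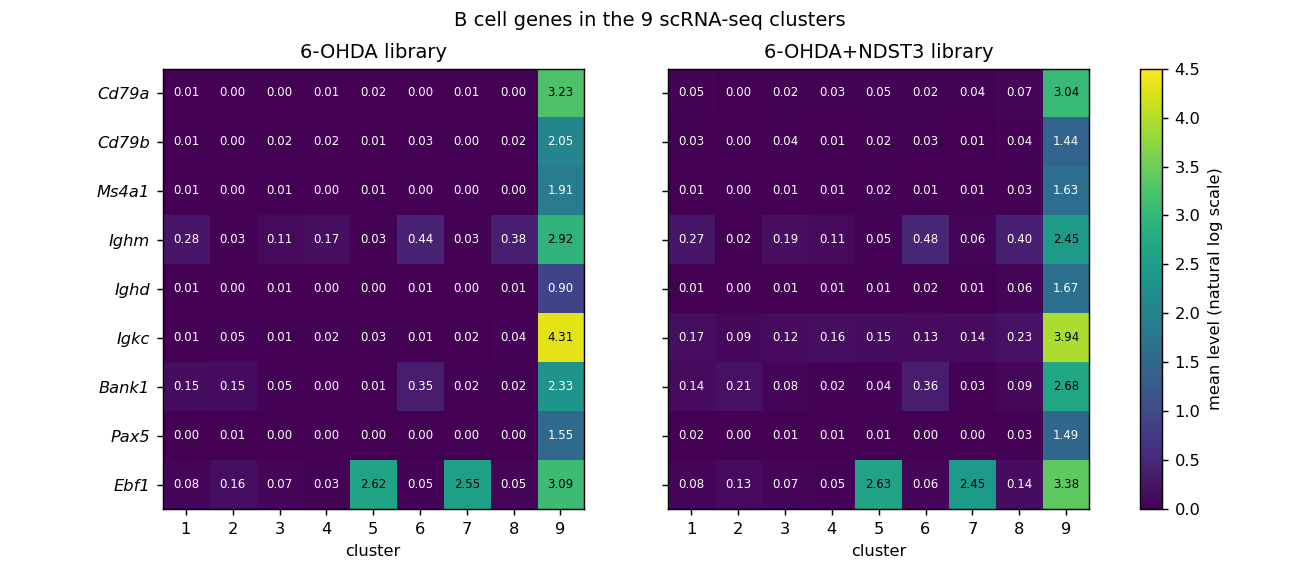
Mean level on the natural log scale (colour and printed value) of the 9 B cell genes (rows) in the 9 scRNA-seq clusters (columns), with 1 library per panel. All 9 genes peak in cluster 9, and Ebf1 also stands at 2.45 to 2.63 in clusters 5 and 7.

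Outside cluster 9 the genes fell into 2 kinds. Cd79a, Cd79b, Ms4a1, Pax5 and Ighd stayed at or below 0.0738 in clusters 1 to 8 in either library, and these 5 genes passed the detection level of 0.1 in cluster 9 alone. The other 4 were found elsewhere. Ebf1 stood at 2.62 and 2.63 in cluster 5, where 7 of 7 mural cell markers were highest, and at 2.55 and 2.45 in cluster 7, led by the endothelial genes Cldn5 and Flt1. In clusters 1 to 8 other than these, Ebf1 did not pass 0.162. Ighm reached 0.441 and 0.482 in cluster 6, where 6 of 6 microglia markers were highest, 0.378 and 0.397 in cluster 8, and 0.281 and 0.27 in cluster 1, where 6 of 6 neutrophil markers were highest. In clusters 2, 5 and 7 Ighm was at or below 0.0589. Bank1 reached 0.352 and 0.365 in cluster 6 and stood at 0.153 and 0.139 in cluster 1 and at 0.145 and 0.208 in cluster 2.

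The level of Igkc outside cluster 9 differed between the libraries. In 6-OHDA it lay between 0.0074 and 0.0463 over clusters 1 to 8. In NDST3 it lay between 0.0937 and 0.226. Igkc was higher in the NDST3 library in 8 of 8 of these clusters, and the 2 ranges did not overlap, while in cluster 9 it was 0.37 lower. Of the 6640 genes above 0.1 in cluster 9 in either library, 2.55% were higher in the NDST3 library in every one of clusters 1 to 8, and Igkc was the only one of the 9 genes to be so. Cd79a, Ms4a1, Pax5, Ighd and Bank1 were higher there in 7 of 8 clusters, and Ighm, Cd79b and Ebf1 in 5 of 8. The highest of the values in the NDST3 library was in cluster 8 for Igkc (0.226), Cd79a (0.0738), Ms4a1 (0.0331), Pax5 (0.0259) and Ighd (0.0565).

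**Figure D2:**
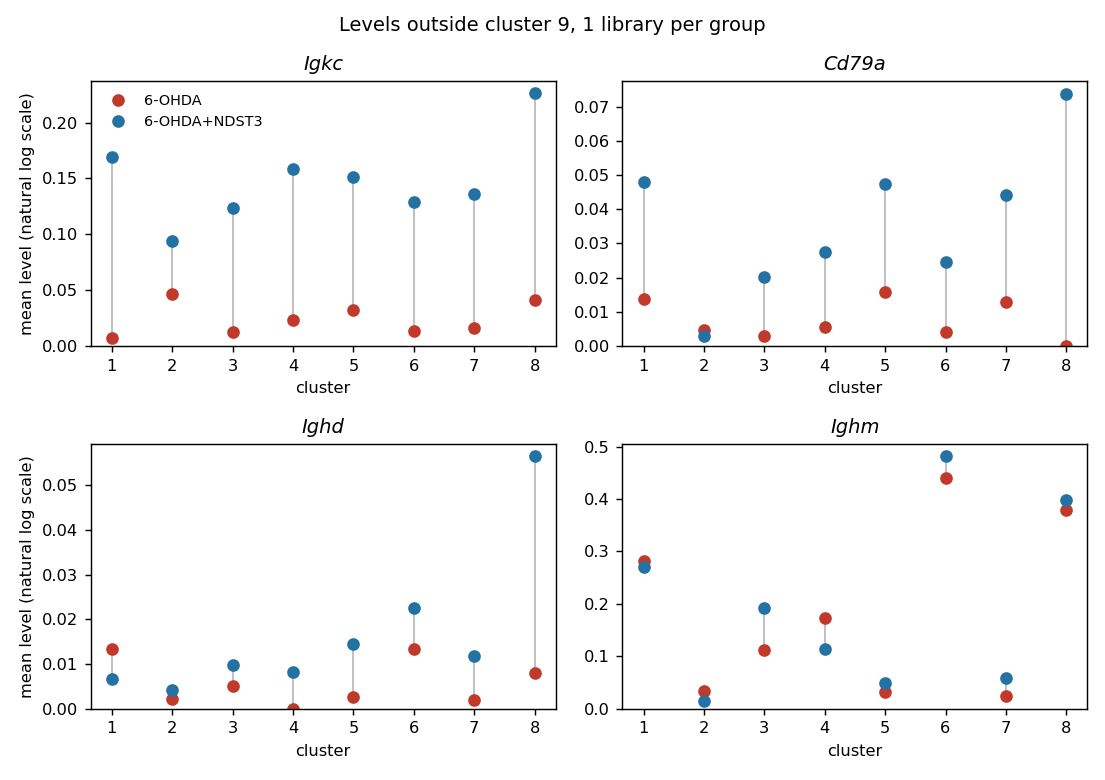
Mean level (y axis, natural log scale, separate range in each panel) of Igkc, Cd79a, Ighd and Ighm in clusters 1 to 8 (x axis), with a point for each library and a grey line joining the libraries in a cluster. Igkc lies between 0.0937 and 0.226 in the NDST3 library and at or below 0.0463 in the 6-OHDA library.

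RNA released by broken cells can give all droplets of a library a low level of abundant transcripts, and droplets with more than 1 cell can mix types. The part of either in these values was not tested. The sources used here do not say whether the deposited values are logs of means or means of logs. Read as logs of means and back-transformed, the ratio of Cd79a to Igkc in the NDST3 library was 0.391 in cluster 9 and 0.0288 to 0.308 in clusters 1 to 8. The ratio of Ighm to Igkc was 0.209 in cluster 9 and 0.159 to 4.49 in the others. The haemoglobin gene Hbb-bs moved the other way and was lower in the NDST3 library in cluster 9 (0.584 against 0.308) and in each of clusters 1 to 8, with 0.378 to 0.766 in the 6-OHDA library and 0.274 to 0.667 in the NDST3 library.

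Among the 9 genes, the libraries differed most within cluster 9 in the IgD heavy chain. Ighd was 0.77 higher in NDST3 on the natural log scale, and was the only one of the 9 to differ by at least 1 on the log2 scale. By that rule 0.136% of the 6640 genes above 0.1 in cluster 9 differed. Bank1 and Ebf1 were 0.35 and 0.29 higher in the NDST3 library. Cd79b was 0.61 lower, Ighm 0.48 lower, Igkc 0.37 lower, Ms4a1 0.28 lower, Cd79a 0.20 lower and Pax5 0.06 lower. In all, 6 of 9 were lower in the NDST3 library, against 3769 lower and 2871 higher among the 6640 genes. With 1 library per group these are differences between libraries.

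Beside the kappa, mu and delta chains, cluster 9 held lambda chains and low levels of alpha and gamma chains. Of the 12 constant region genes, 12 were highest in cluster 9 and 8 passed 0.1 there. The lambda genes Iglc1 and Iglc2 stood at 1.15 and 1.93 in 6-OHDA and at 0.367 and 1.66 in NDST3. Igha, the IgA heavy chain, stood at 0.549 and 0.0437, and Jchain, which joins secreted IgA or IgM, at 0.281 and 0.0791. Among the IgG heavy chains, Ighg2b stood at 0.122 and 0.0658, while Ighg1, Ighg2c and Ighg3 were listed at 0 in 6-OHDA and reached at most 0.0632 in NDST3. Igha, Jchain and Iglc1 were thus lower in the NDST3 library, while Ighd was higher. Single variable segments had low means. Of 65 heavy chain segments 59 were highest in cluster 9, and of 59 kappa segments 50 were, yet only the kappa segments Igkv12-44 (0.114 and 0.00551) and Igkv1-117 (0.112 and 0.0209) passed 0.1, both in the 6-OHDA library.

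Genes of early B cell development were near 0 in cluster 9. Rag1, part of the enzyme that cuts receptor genes, stood at 0.0501 and 0, and the surrogate light chain gene Igll1 was at 0 in both libraries. Only 2 of 12 precursor genes passed 0.1 there, Vpreb3 at 1.07 and 0.536 and Sox4 at a mean of 0.193. Homing and survival receptors were present, with Ccr7 at 1.48 and 1.59, Cxcr5 at 0.856 and 1.04, and Tnfrsf13c, the BAFF receptor, at 1.10 and 0.776. The plasma cell factor Prdm1 was low in cluster 9, with a mean of 0.0958 against 0.526 in the highest other cluster, and Mzb1, which marginal zone B cells and plasma cells use to fold IgM, had a mean of 1.47. Of 10 genes of MHC class II antigen presentation, 10 were higher in the NDST3 library, with a median of 0.49, among them H2-Eb1 (1.51 against 3.32) and H2-Aa (2.61 against 3.80). Cd74, H2-Aa, H2-Ab1 and H2-Eb1 were also higher there in each of the other 8 clusters.

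The profile of the 9 genes across the 18 means (9 clusters in 2 libraries) gave a list of their closest genes. These correlations rest on the 2 means of cluster 9 for most genes and are given as descriptions. Cd79a was closest to Pax5, Mzb1 and Igkc (r of at least 0.9993). Pax5 was closest to Cd79a, Mzb1 and Fcrla, and Igkc to Cd79a, Mzb1 and Pax5, each with r of at least 0.9989. Cd79b was closest to Tnfrsf13c, Gm30211 and Chst3 (at least 0.9963), and Ms4a1 to Iglc2, Fcer2a and Ly6d (at least 0.9987). Ighm was closest to Ly6d, Siglecg and Slc9a7 (at least 0.9847), Ighd to Gm16341, Scd1 and Gm31243 (at least 0.9912), and Bank1 to Fcrl1 and Gm31243 (at least 0.9895). Ebf1 stood apart, with Dennd5b, Maco1 and Dipk1a as its closest genes at r between 0.8883 and 0.9117 and r of 0.5181 with Ighm.

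In whole tissue the same genes did not move together. Between 6-OHDA and sham, Ighm and Igkc rose, Pax5 and Ebf1 fell, and Cd79a and Bank1 did not pass the test. The test was edgeR's quasi-likelihood test over all 5 libraries with Benjamini-Hochberg adjustment over 19300 genes, called at an adjusted p under 0.05. Of the 6 listed genes 4 were called, against 35.8% of all genes tested, and the same 4 passed the study's own rule (a 2-fold change or more and a raw p under 0.05), against 24.5%. Cd79b, Ms4a1 and Ighd are not in the RNA-seq table, whose rows all have at least 1 count in every library. The single library of 6-OHDA has no replicate and is assumed to vary like the others. With either sham library left out, none of the 4 genes and no gene at all was called by adjusted p, while the 4 kept their direction. In bulk tissue, fewer cells of a type and less RNA per cell cannot be told apart.

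**Figure D3:**
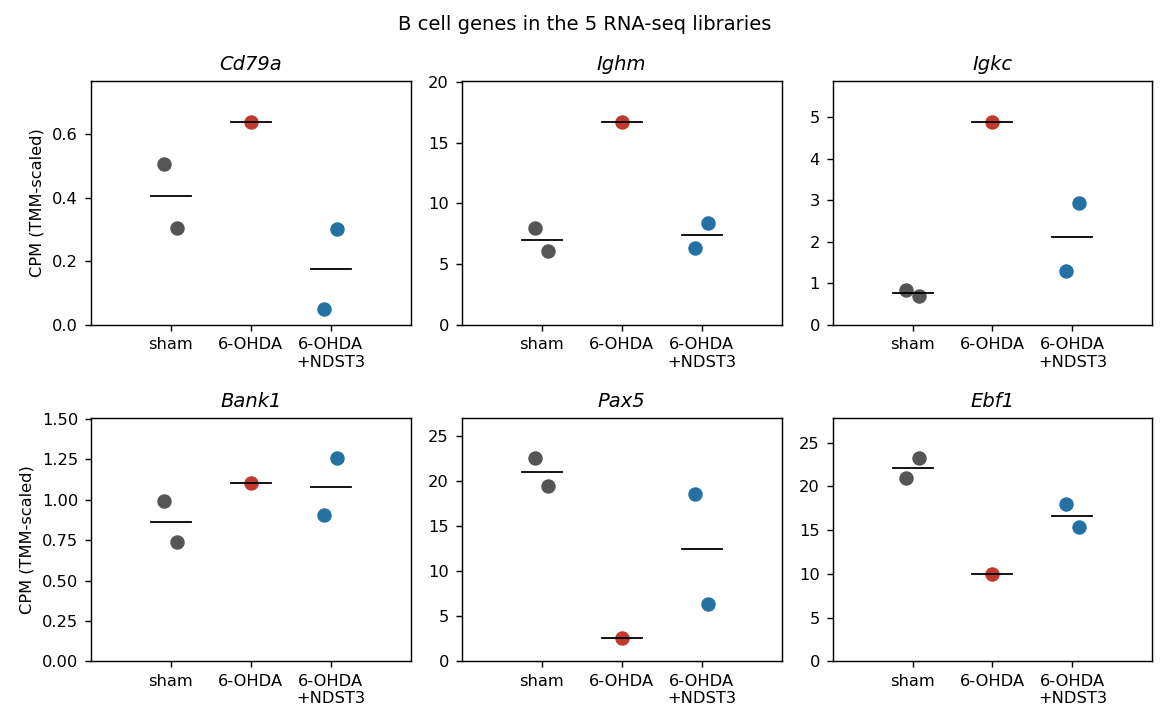
CPM (y axis, counts scaled to library size with TMM factors, separate range in each panel, from 0) of the 6 B cell genes in the RNA-seq table, with a point for each library and a line for the group mean. Igkc and Ighm are highest, and Pax5 and Ebf1 lowest, in the single 6-OHDA library.

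Igkc (NCBI Gene 16071, chromosome 6 of GRCm38.p6 from 70726435 to 70726754) was counted 43 and 47 times in sham, 253 times in 6-OHDA, and 77 and 175 times in NDST3. The 6-OHDA library was above all others, and both NDST3 libraries were above both sham libraries. In CPM (counts scaled to library size) this is 0.758 ± 0.109 (SD, n = 2) in sham, 4.90 in 6-OHDA and 2.11 ± 1.16 (SD, n = 2) in NDST3. Its log2 change against sham was 2.69 ± 0.54 (standard error, SE, adjusted p = 0.0195), the largest rise of the 6 genes. Ighm (NCBI Gene 16019, chromosome 12 from 113418826 to 113422730) was counted 412 and 418 times in sham, 865 times in 6-OHDA, and 377 and 503 times in NDST3. The 6-OHDA library was again the highest, while the NDST3 and sham libraries overlapped in CPM. Its log2 change against sham was 1.25 ± 0.27 (SE, adjusted p = 0.0234).

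The kappa and mu chains thus rose by unequal amounts. Per length, the TPM of Igkc was 0.483 and 0.522 times that of Ighm in the sham libraries, 1.36 times in the 6-OHDA library, and 0.95 and 1.62 times in the NDST3 libraries. Both sham libraries were below all 3 lesioned libraries in this ratio. The third constant region gene in the table, Igha, was counted 86 and 68 times in sham, 385 times in 6-OHDA, and 131 and 294 times in NDST3. Its log2 change against sham was 2.495 ± 0.57 (SE, adjusted p = 0.0275), and that of Jchain was 2.94 ± 0.69 (SE, adjusted p = 0.0301) with 23 and 22 counts in sham and 151 in the 6-OHDA library. Igha and Jchain were close to 0 in clusters 1 to 8, where they reached at most 0.0391 and 0.021.

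Pax5 (NCBI Gene 18507, chromosome 4 from 44524748 to 44710694) was counted 1160 and 1342 times in sham, 134 times in 6-OHDA, and 1107 and 381 times in NDST3. The 6-OHDA library was the lowest, and the NDST3 libraries lay far apart, the first near sham. In CPM this is 21.0 ± 2.18 (SD, n = 2) in sham, 2.60 in 6-OHDA and 12.5 ± 8.63 (SD, n = 2) in NDST3. The log2 change against sham was -3.01 ± 0.73 (SE, adjusted p = 0.032). Ebf1 (NCBI Gene 13591, chromosome 11 from 44618100 to 45008096) was counted 1079 and 1602 times in sham, 517 times in 6-OHDA, and 1068 and 915 times in NDST3. The 6-OHDA library was below all others, and in CPM both NDST3 libraries were below both sham libraries. Its log2 change against sham was -1.14 ± 0.18 (SE, adjusted p = 0.0115).

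The order of Pax5 and Cd79a differed between whole tissue and cluster 9, in measures that are not alike. TPM is scaled for length, while the order of genes in the cluster means also depends on capture. In cluster 9 the mean of Cd79a was above that of Pax5 in both libraries. In the sham tissue the TPM of Pax5 was 5.55 and 7.90 times that of Cd79a. In the 6-OHDA library it was 0.495 times, which is the only library with Pax5 below Cd79a. The NDST3 libraries lay on either side of sham, with 48.6 times in the first and 2.61 times in the second. The ratio of the first rests on 3 counts of Cd79a. No scRNA-seq cluster other than 9 had a Pax5 mean above 0.0259. Neuron markers were low in the clusters: a list of 5 had a summed mean of at most 0.433 in any cluster and library. The largest single mean of that list, 0.417, was in cluster 7, led by endothelial genes. Of the longer neuron list used for RNA-seq below, Map2 had a mean of 0.535 over both libraries in cluster 2.

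Cd79a (NCBI Gene 12518, chromosome 7 from 24897497 to 24901858) was counted 26 and 21 times in sham, 33 times in 6-OHDA, and 3 and 18 times in NDST3. The 6-OHDA library was the highest in CPM by a margin of few counts, and its log2 change against sham of 0.67 ± 0.89 (SE, adjusted p = 0.589) did not pass the test. Bank1 (NCBI Gene 242248, chromosome 3 from 136053363 to 136326141) was counted 51 and 51 times in sham, 57 times in 6-OHDA, and 54 and 75 times in NDST3. Its log2 fold change was 0.36 ± 0.43 (SE, adjusted p = 0.55). With the standard error of 0.89, a change of the receptor chain Cd79a that is as large as that of Ighm was not detectable. Cr2, at 18 to 34 counts, had a standard error of 0.43 in the same comparison.

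**Figure D4:**
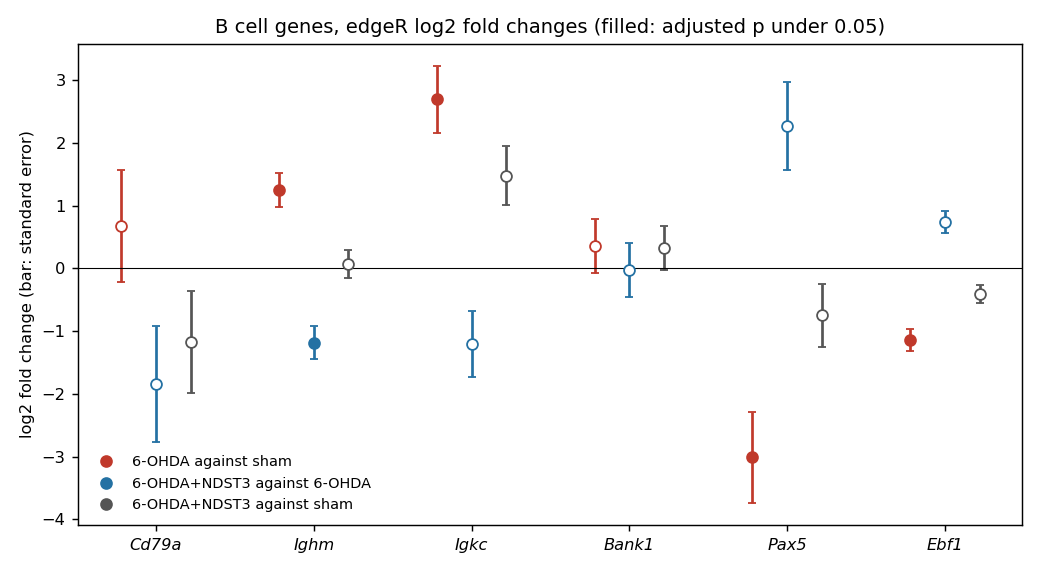
Log2 fold change (y axis, with the standard error as bars) of the 6 B cell genes in 3 comparisons, from edgeR over all 5 libraries, with filled points at an adjusted p under 0.05. Between 6-OHDA and sham, Igkc and Ighm lie above 0 and Pax5 and Ebf1 below it, and the difference between the NDST3 and 6-OHDA libraries has the opposite sign for these 4 genes.

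Between NDST3 and 6-OHDA, 1 of the 6 genes passed, against 15.6% of all genes. Ighm fell by 1.18 in log2 units (SE 0.27, adjusted p = 0.0481). The call is at the edge of the threshold, and the adjusted p of Ighm lay between 0.00381 and 0.184 over 13 other settings, under 0.05 in 4 of them. Igkc had a log2 fold change of -1.21 ± 0.53 (SE, adjusted p = 0.163), Pax5 of 2.27 ± 0.70 (SE, adjusted p = 0.0846), Ebf1 of 0.73 ± 0.18 (SE, adjusted p = 0.0528) and Cd79a of -1.85 ± 0.92 (SE, adjusted p = 0.21). Bank1 was at -0.03 (adjusted p = 0.97). Both NDST3 libraries lay on the sham side of the 6-OHDA library for Cd79a, Ighm, Igkc, Pax5 and Ebf1. The share of all genes that did so was not counted, so this is not a result about these genes. This comparison uses the same single 6-OHDA library as the first one. By the study's rule, Pax5 was higher and Ighm lower, against 15.7% of all genes. Without the second NDST3 library the rise of Pax5 was called (2.81, adjusted p = 0.0296), and so was the fall of Igkc (-1.95, adjusted p = 0.049). Without the first, no member was called. Cd79a lay at -3.64 without the second and at -1.08 without the first, with neither called.

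Between NDST3 and sham, edgeR called none of the 6 genes and 0.0% of all 19300 genes by adjusted p, with 2744 genes at a raw p under 0.05. The raw p was under 0.05 for 2 of the 6, Igkc with a log2 fold change of 1.48 ± 0.47 (SE, adjusted p = 0.281) and Ebf1 with -0.41 ± 0.14 (SE, adjusted p = 0.303). Igkc was the only one to pass the study's rule, against 5.86% of all genes. Its log2 fold change was 0.75, below that rule, without the second NDST3 library and 1.95 without the first. In CPM, Igkc was higher, and Ebf1, Pax5 and Cd79a lower, in 2 of 2 NDST3 libraries than in any sham library. For Cd79a the second NDST3 library, at 0.302, was barely below the second sham library, at 0.304. The share of all genes that separate in this way was not counted, so this is not a result about these genes. DESeq2 called none of the 6 either, among 1048 genes.

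Markers of other cells moved with these comparisons, and their part in the results was not tested. The summed CPM of 5 red blood cell markers was 404.3 to 711.4 in sham, 1817 in the 6-OHDA library and 348.8 to 350.4 in the NDST3 libraries. That of 8 microglia markers was 298.1 to 391, 2323, and 807 to 1330, and that of 5 neutrophil markers 11.7 to 14.6, 109, and 38.4 to 68.1. The 10 neuron markers summed to 6645 to 7402 in sham, 2643 in the 6-OHDA library and 5300.0 to 5948 in the NDST3 libraries. This sum was lowest in the 6-OHDA library, where Pax5 and Ebf1 were also lowest. In the NDST3 libraries it was 5948 and 5300, while the CPM of Pax5 was 18.6 and 6.38. Of these 10, 9 fell between 6-OHDA and sham, and 1 had a log2 fold change of 2.74 that was not called. Sums of 8 striatal projection neuron markers were 209 to 219, 143.5 and 219 to 220.1. The 10 markers of mural cells, which had the highest Ebf1 outside cluster 9, summed to 272.2 to 336.8, 618 and 224.9 to 255.7. Of these, 4 rose against sham and none fell, with 3 of the other 6 at a log2 fold change below 0, and Tagln alone had a CPM of 18.1 and 10.9 in sham and of 170.1 in the 6-OHDA library. The 6 fibroblast markers summed to 237 to 395.4 in sham, 1345 in the 6-OHDA library and 214.7 to 284.7 in the NDST3 libraries, and 6 of 6 rose against sham and fell between NDST3 and 6-OHDA. Of 8 listed T cell markers none was called by edgeR, with 1 at a raw p under 0.05.

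Other genes of the B cell programme were tested in the same fit. In the comparison with sham, 23 of 27 tested genes of B cell receptor signalling rose and 1 fell (median log2 fold change 2.09, against -0.0025 for all genes, of which 3625 of 19300 rose and 3291 fell). Among them were Inpp5d (2.94), Rasgrp3 (1.24), Nfkb1 (1.09), Ptk2b (2.08) and Fyn (0.93), while Sos1 fell by 0.79. The kinase genes Syk, Lyn and Btk, which pass the signal on from CD79A and CD79B, rose by 3.34, 3.25 and 3.24. Of 9 tested coreceptor and surface genes 7 rose, among them the inhibitory receptors Cd22 (4.85) and Fcgr2b (4.22), and Cd37 (3.25), Cd24a (1.74), Cd83 (0.54) and Cd81 (0.51). Of 15 transcription factors of the lineage 7 rose, including Spi1 (3.45), Irf8 (3.45), Mef2c (1.64), Pou2f2 (1.53), Ets1 (1.20) and Tcf3 (0.83), and none fell.

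Many of these genes are not particular to B cells in the clusters. Syk, Lyn and Spi1 were highest in cluster 1, and Blnk and Irf8 in cluster 6. Of the pathway genes whose highest level was in clusters 1, 3 or 6, 23 of 27 tested in bulk rose (median 2.66). Of those highest in cluster 9, 13 of 25 rose (median 1.34), and of those highest in clusters 2, 4, 5, 7 or 8, 16 of 27 rose and 1 fell (median 1.24). After these values were seen, the 15 genes above 0.1 in cluster 9 and nowhere else were picked out. Of these, 8 are not in the RNA-seq table, among them Fcer2a, Fcmr, Siglecg and Cxcr5. Of the other 7, the plasma cell genes Jchain (2.94) and Sdc1 (1.49) rose, and Cr2 (0.83, adjusted p = 0.193), Pou2af1 (1.34, adjusted p = 0.187), Tnfrsf13c (0.56, adjusted p = 0.446), Mzb1 (1.01, adjusted p = 0.473) and Bcl11a (-0.37, adjusted p = 0.298) did not pass. Cr2 had 21 and 23 counts in sham and 34 in the 6-OHDA library, close to the counts of Cd79a.

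**Figure D5:**
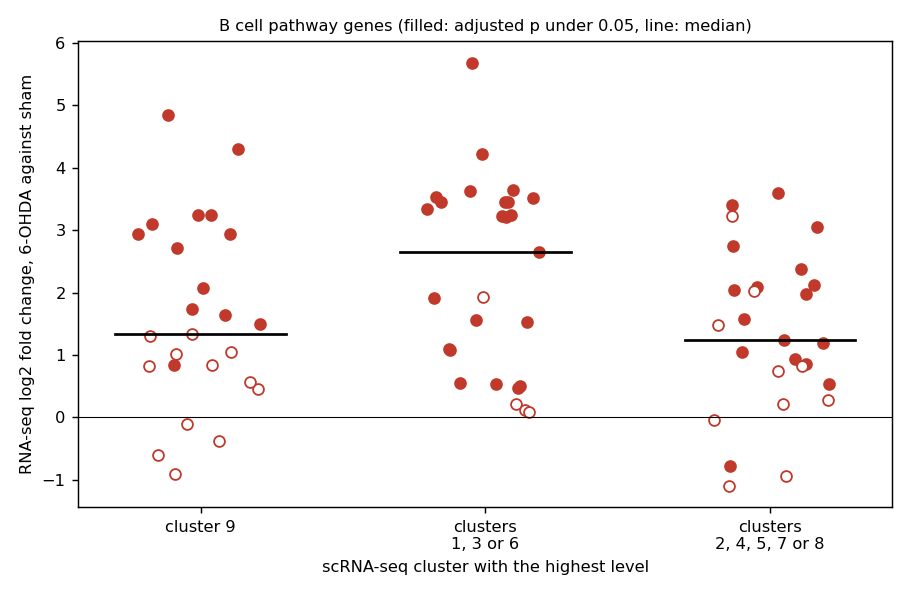
RNA-seq log2 fold change between 6-OHDA and sham (y axis) of the B cell pathway genes other than the 9, placed by the scRNA-seq clusters in which each is highest (x axis), with a point per gene, filled at an adjusted p under 0.05, and a line at the median. The median is 2.66 for genes highest in clusters 1, 3 or 6 and 1.34 for genes highest in cluster 9.

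Genes of B cell attraction and survival were among those called. Cxcl13, the chemokine that attracts B cells through CXCR5, was counted 35 and 54 times in sham, 1956 times in 6-OHDA, and 83 and 109 times in NDST3. It rose by 5.69 against sham (standard error 0.25, adjusted p = 0.00823) and fell by 4.55 between NDST3 and 6-OHDA (standard error 0.23, adjusted p = 0.032). Its scRNA-seq means did not pass 0.0615 in any cluster, the highest being in cluster 3. Cxcl12 rose by 0.86 and fell by 1.34 (adjusted p = 0.0285 and 0.0335), and Tnfrsf13b, the TACI receptor, rose by 2.72 against sham. Of the 13 tested survival and homing genes 6 rose and none fell in the comparison with sham, and 3 fell between NDST3 and 6-OHDA. Of 9 tested plasma cell genes 6 rose against sham, among them Tent5c (3.53), Prdm1 (3.52), Sdc1 (1.49), Txndc5 (0.53) and Xbp1 (0.48). Of those named, Sdc1 was highest in cluster 9, while Tent5c and Xbp1 were highest in cluster 6, Prdm1 in cluster 3 and Txndc5 in cluster 2. Of 6 tested precursor genes Il7r (2.75), Cd93 (2.12) and Sox4 (1.56) rose, which were highest in clusters 8, 7 and 6. Of 10 MHC class II genes 8 rose, with Cd74 at 3.49, H2-Aa at 3.69 and a median of 2.95. Between NDST3 and 6-OHDA none of these 10 passed by edgeR (4 at a raw p under 0.05), with a median of -1.26.

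The chromatin tables hold regions near the starts of genes and gave none for the 9 genes, which says only that none of the 11424 H3K27ac regions and 3582 ATAC-seq regions listed is assigned to them. For other genes of the B cell lists they hold 20 H3K27ac regions of 12 genes and 7 ATAC-seq regions of 7 genes, with 1 column per group and no replicate. The signal of H3K27ac, a mark of active promoters, was lower in 6-OHDA than in sham in 13 of the 20 regions, against 41.4% of all 11424, and higher in NDST3 than in 6-OHDA in 20 of 20, against 96.3%. It stood at 13, 4 and 6 in sham, 6-OHDA and NDST3 at Plcg2, and at 13.1, 6.45 and 11.4 at Pik3cd, both enzymes of receptor signalling. The RNA of both rose in the same comparison (1.92 and 1.58). At the 2 regions of Mef2c it stood at 7.83, 13.7 and 28.1 and at 13.6, 17.9 and 35.7. The BAFF receptor gene Tnfrsf13c had signals of 15.0, 12.2 and 16.2 in the region at its start. In ATAC-seq the region of Lyn had signals of 33.6, 32.8 and 34.7, and that of Pik3cd 28.6, 17.8 and 24.3, in the same order.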

How the data were processed

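The deposited tables of RNA-seq, H3K27ac CUT&RUN, ATAC-seq and scRNA-seq of mouse brain were used. For RNA-seq, the authors ran Trimmomatic, HISAT2 (mm10) and StringTie, and deposited a read count per gene. The FPKM and TPM of the same genes, scaled for length and depth, were deposited too. Means of scRNA-seq clusters were deposited with a header that names mean counts, and their values match a natural log scale of counts that the authors normalized to 10000 per cell and clustered into 9 groups with Seurat. Against doublets, the authors left out cells with very many genes, and no doublet caller can be run on cluster means. For CUT&RUN and ATAC-seq the authors deposited 1 tag signal per region and group, with the 2 CUT&RUN libraries of a group in 1 column and a normalization not given in the sources used here. The strand setting of counting is not given either.

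Counts were fitted with edgeR 4.0.16 in R 4.3.3 (TMM factors, filterByExpr, quasi-likelihood test, all 5 libraries). Standard errors (SE) of log2 changes were taken as the absolute change over the root of F. Alternatives were DESeq2 1.42.0, limma 3.58.1 on the log2 of FPKM plus 1 or plus 0.1, other scaling, no filter, only the 2 groups compared, a replicate block and each replicate left out in turn. The fit was tested on simulated counts with 200 changed genes. TPM values were not tested. Total counts ranged from 51003699 to 70533326 per library. A mean above 0.1 counted as detected in scRNA-seq.

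The members and lists were chosen with earlier results of these data known. Named genes are every member, up to 6 called genes per list by mean count, the 3 genes most like each member among those above 0.5 in a cluster, counts of 5 or fewer, and others chosen after their values were seen. Of the genes this rule names, 1 is not reported here. Calculations outside R used Python 3.11.15.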

Additional observations from a re-analysis of the deposited data

Results flagged for a closer look

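Igkc differed between the scRNA-seq libraries in opposite directions in different clusters. It was lower in NDST3 in cluster 9 by 0.37 on the natural log scale (a difference of -0.37) and higher in 8 of 8 other clusters. With 1 library per group the difference was not tested.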

How the results depend on the processing

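Between 6-OHDA and sham, all 6 genes kept their direction in 13 of 13 alternatives, and 4 were called except under the replicate block, where 1 was (Pax5), and without either sham library, where 0 were (0 to 4 over the libraries left out). The replicate block moved the calls over all genes from 6916 to 1796. Between NDST3 and 6-OHDA, 1 gene was called as reported, 0 under no filter, either limma setting, only the 2 groups compared and the replicate block, 3 under DESeq2 and 0 to 3 without 1 library. With library totals only, the gene called was Ebf1 (adjusted p = 0.0481) in place of Ighm. The calls over all genes were 3019 as reported, 5232 under DESeq2, 0 with only the 2 groups or the replicate block, and 0 to 3163 without 1 library. Against sham, NDST3 gave 0 members in all settings, and 1048 genes under DESeq2 against 0. The numbers did not pair the libraries: same-numbered deviations correlated at -0.34 across 19300 genes. With crossed numbers, an alternative chosen after seeing the data, the replicate block gave 4, 2 and 0 members and 7444, 4795 and 1194 genes in the 3 comparisons.

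Bank1 turned between NDST3 and 6-OHDA with crossed numbers (0.18) and, over the libraries left out, lay between -0.31 and 0.19. The change of Ighm between NDST3 and sham lay between -0.17 and 0.28 over the libraries left out. The genes detected in cluster 9 alone were 5 as reported, 3 at a level of 0.05 and 6 at 0.25. All 9 genes were highest in cluster 9 in either library alone. Given that order, back-transforming the means could not change this count. The counts of regions by direction could not change either, because their alternatives only altered a constant added to both signals. The table has no promoter annotation, so that alternative was not run. The cause of these changes was not tested. Cd79a rests on 3 to 33 counts per library.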
